A study of Drosophila melanogaster with 6 samples.

Results

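The UDP-glycosyltransferase (Ugt) genes of Drosophila melanogaster were compared between heads of Kdm3 KO flies, which carry a knockout of the histone demethylase gene Kdm3, and heads of wBerlin flies, a control stock. The members are the genes of the deposited count table whose FlyBase symbol begins with Ugt and a number. There are 35 of them among 17753 genes, and all 35 passed the filter on low counts that 14069 genes passed in all. RNA came from whole heads of adults of both genotypes, collected 2 to 7 days after eclosion, with 50 heads in each of 3 biological replicates per genotype. Flies of both genotypes were reared on the same cornmeal medium at 25 °C. The labels used here do not say how the Kdm3 allele was made, which sex the flies had or whether replicates came from separate vials, so p-values measure the spread between these samples, which may be technical.

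UDP-glycosyltransferases move a sugar from a UDP-sugar, in insects mostly UDP-glucose, onto a small fat-soluble molecule. The product is more soluble in water and easier to transport or excrete, and the enzymes act on plant toxins, insecticides, pigments, hormones and odorants. The family has grown by tandem duplication, so that many members stand in rows along the chromosome, and members that share a number after Ugt belong to 1 subfamily. In insects several members are expressed in the antennae, where biotransformation enzymes can clear odorants.

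The knockout libraries held 19850981 to 25571878 counts and the wBerlin libraries 21935654 to 28237382. Levels are given as CPM, counts per 1000000 counts of a library after TMM scaling. A count of 0 would allow a level of up to 0.108 to 0.138 CPM (3 counts, counting error only), and no member was that low in any library. Kdm3 itself was at 3.86, 0.642 and 0.710 CPM in Kdm3 KO replicates 1, 2 and 3, against 32.5, 30.1 and 28.7 CPM in wBerlin replicates 1, 2 and 3. The eye pigment transporter gene w, on the X chromosome, was at 22.1, 23.1 and 29.0 CPM in Kdm3 KO, against 1.51, 1.79 and 1.56 CPM in wBerlin, 15.2-fold higher (adjusted p = 3.91e-06). Kdm3 KO replicate 2 stood apart from the other 5 libraries on the leading principal component, which held 44.1% of the variance. Whole-head samples cannot separate fewer cells of a type from less RNA per cell.

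Of the 35 Ugt genes, 3 were higher and 3 lower in Kdm3 KO heads by edgeR's quasi-likelihood test (adjusted p under 0.05), and 29 did not pass it. The higher genes were Ugt35B1, Ugt49B1 and Ugt37A3, and the lower genes were Ugt35A1, Ugt35C1 and Ugt302K1. The called members are 17.1% of the family, against 3.07% of all tested genes called in either direction (2.15% higher, 0.917% lower). The call counts of the family shift with the method. DESeq2 called 6 higher and 3 lower members where it called 6.57% of all genes (3.66% higher, 2.91% lower). It gave no adjusted p for some low members, such as Ugt307A1 and Ugt304A1, which it thus could not call. Its shares are nonetheless over all 14069 tested genes. Limma voom called 2 higher and 3 lower members where it called 2.77% of all genes (1.99% higher, 0.782% lower). The median log2 fold change of the members was 0.32, against 0.0357 over all tested genes, and 26 of 35 members had a positive value, against 56.4% of all tested genes. Without Kdm3 KO replicate 2 the median was 0.11 for the members and −0.00613 for all tested genes, and 20 of 35 members had a positive value. The values of 15 members did not overlap between the genotypes, 11 with all knockout libraries higher and 4 with all lower. Over all tested genes 18.7% had no overlap, 9.35% with all knockout libraries higher and 9.33% with all lower.

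**Figure D1:**
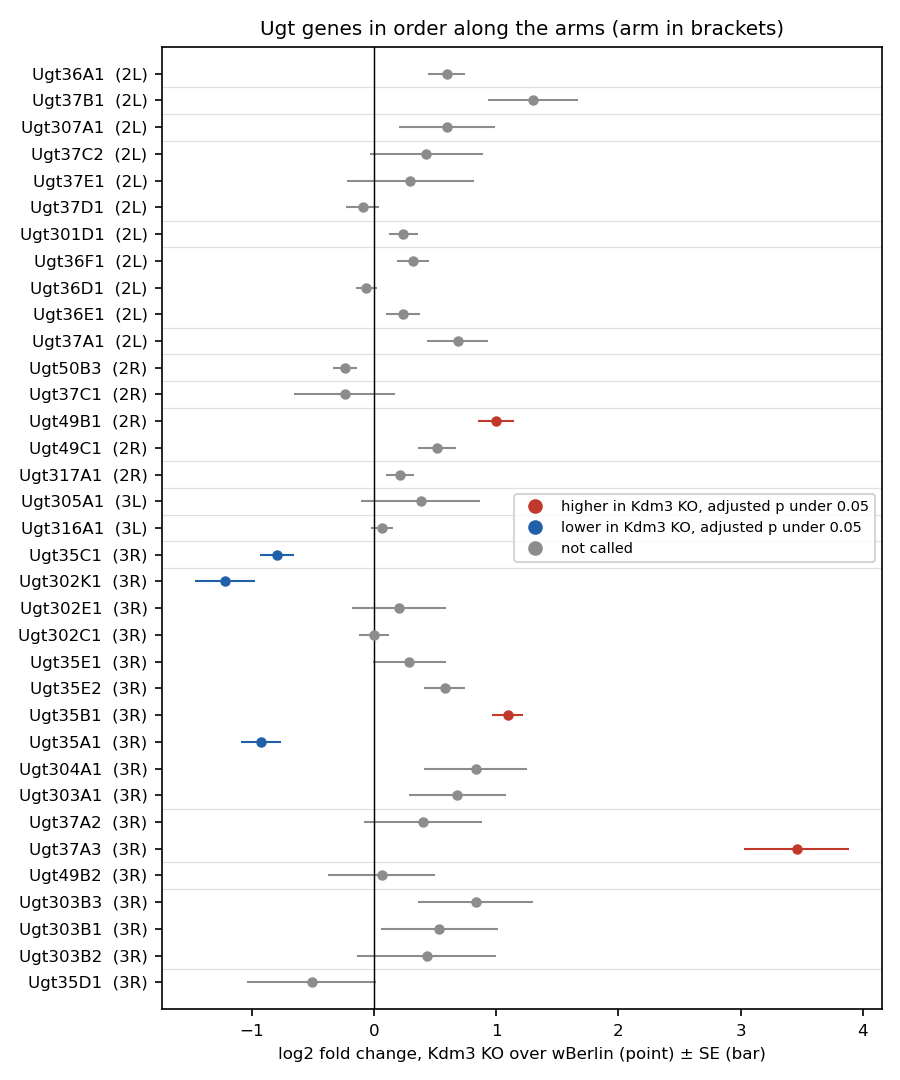
Each point is the log2 fold change of 1 of the 35 Ugt genes, Kdm3 KO over wBerlin, with a bar of 1 SE, in order along the arms; grey lines part the runs of neighbours. Red points are the 3 higher and blue points the 3 lower genes, and the values run from −1.22 for Ugt302K1 to 3.46 for Ugt37A3.

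The family as a whole was dominated by a few genes. Levels between genes are compared per length, as CPM per kb of merged exon. On that scale Ugt35B1 was the most abundant member in both genotypes, at 131 ± 20.3 CPM per kb in Kdm3 KO and 61.1 ± 4.82 CPM per kb in wBerlin (SD, n = 3). In wBerlin it was followed by Ugt37D1 (48.1 ± 6.81), Ugt302C1 (40.5 ± 3.63), Ugt301D1 (35.2 ± 3.26) and Ugt49B1 (29.1 ± 1.86 CPM per kb, SD, n = 3). Adjacent genes in this order from Ugt37D1 to Ugt301D1 overlapped within 1 SD. In Kdm3 KO Ugt49B1 stood second at 58.2 ± 12.5 CPM per kb, and Ugt37D1, Ugt301D1 and Ugt302C1 at 45.2 ± 6.08, 41.6 ± 5.85 and 40.5 ± 5.85 CPM per kb overlapped one another and Ugt49B1 within 1 SD (SD, n = 3). The 19 members with a mean under 5 CPM made up only 2.88 to 7.81% of the family's summed CPM per kb in Kdm3 KO libraries and 4.12 to 4.65% in wBerlin libraries.

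The summed level of the family was 993, 799 and 966 CPM in Kdm3 KO replicates 1, 2 and 3, against 675, 744 and 763 CPM in wBerlin. Every knockout library lay above every wBerlin library, with means of 919 ± 105 and 727 ± 46.1 CPM (SD, n = 3) and a ratio of 1.26. The exact two-sided permutation test gave p = 0.1, the smallest that 3 against 3 libraries allow. Without Ugt35B1 the sums were 758, 620 and 725 CPM in Kdm3 KO and 579, 645 and 651 CPM in wBerlin, and the groups overlapped (exact permutation p = 0.3). Ugt35B1 alone supplied 26.8, 25.7 and 28.4% of the summed CPM per kb in Kdm3 KO, against 16.8, 15.5 and 17.1% in wBerlin.

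**Figure D2:**
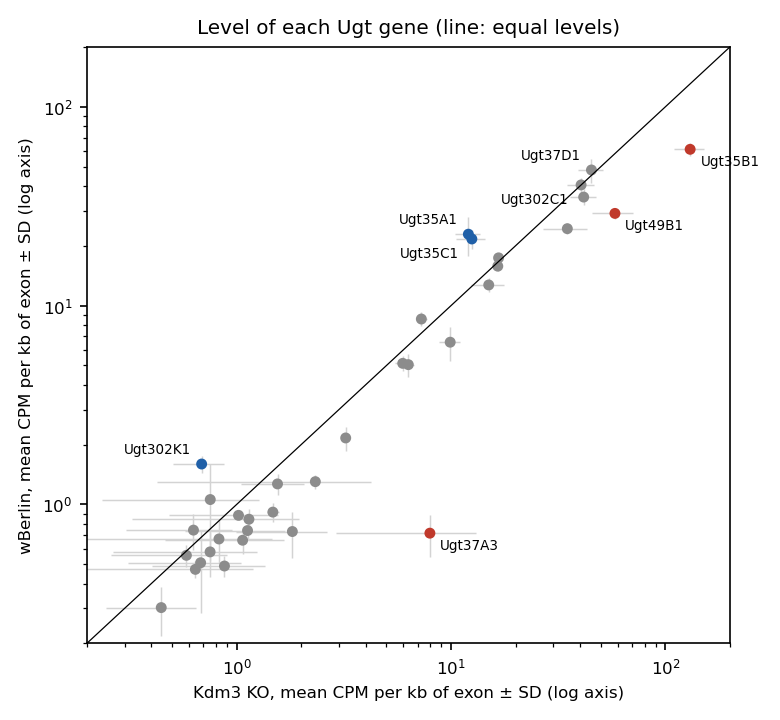
Each point is 1 Ugt gene, with its mean CPM per kb of exon in Kdm3 KO on the horizontal and in wBerlin on the vertical log axis, bars of 1 SD (n = 3) and a line of equal levels. Ugt35B1 sits at the top right at 131 and 61.1 CPM per kb, and Ugt37A3 lies far to the right of the line at 7.97 and 0.717 CPM per kb.

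The largest stretch of Ugt genes lies on arm 3R and holds 10 members in 51.3 kb, from Ugt35C1 (11126597 to 11128328, BDGP6) to Ugt303A1 (11175529 to 11177910). It is 1.61 to 1.65 Mb from Kdm3 (3R, 9516007 to 9520938). No other member is within 2 Mb of Kdm3. Of the 10 genes 1 was higher, 3 were lower and 6 did not pass the test, against 3.43% of the other 3466 tested genes of arm 3R called and 4.69% of the 512 other genes within 2 Mb of Kdm3. For members on arm 3R, loss of Kdm3 and differences in sequence carried along with the Kdm3 allele cannot be told apart. For members on other arms, loss of Kdm3 and other differences between the stocks cannot be told apart either.

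Ugt35B1 (3R, 11168503 to 11170246, minus strand), a gene reported to be expressed preferentially in the antennae, was at 235, 179 and 241 CPM in Kdm3 KO replicates 1, 2 and 3. In wBerlin replicates 1, 2 and 3 it was at 96.5, 98.8 and 111 CPM. All knockout libraries lay above all wBerlin libraries. The means were 218 ± 34.0 and 102 ± 8.06 CPM (SD, n = 3), a 2.14-fold difference (log2 fold change 1.09, SE 0.129, adjusted p = 0.00304, edgeR's quasi-likelihood test). It was called under all 15 alternatives, at log2 fold changes of 1.00 to 1.22.

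Its neighbour Ugt35A1 (3R, 11170817 to 11172664, minus strand), of the same subfamily and separated from it by 570 bp, went the other way. Ugt35A1 was at 24.3, 18.5 and 21.6 CPM in Kdm3 KO, against 31.8, 40.5 and 49.9 CPM in wBerlin. The groups did not overlap, and wBerlin replicate 1 lay closest to the knockout libraries. Ugt35A1 had a log2 fold change of −0.92, with an SE of 0.166 (adjusted p = 0.0173), and was at 52.8% of the wBerlin level. This call ended without Kdm3 KO replicate 2, Kdm3 KO replicate 3 or wBerlin replicate 2 (adjusted p 0.0548, 0.0662 and 0.0599).

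Since both genes are read in the same library, their ratio does not depend on how libraries are scaled. The CPM of Ugt35B1 was 9.67, 9.69 and 11.1 times that of Ugt35A1 in Kdm3 KO, against 3.03, 2.44 and 2.23 times in wBerlin. The ratio was thus 3.96-fold larger in the knockout, with no overlap (exact permutation p = 0.1, the smallest possible). Neither gene overlapped between the genotypes and they went opposite ways, so their ratio could not overlap. That p was therefore fixed in advance and adds no support to the calls of the genes. This ratio was among 5 computed, chosen after the values were seen, and Benjamini-Hochberg adjustment could only raise the p.

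Ugt35C1 (3R, 11126597 to 11128328, minus strand), older name Ugt86Dd, has been linked to nicotine resistance in larvae. It lies at the end of the stretch nearest Kdm3, with 24.4 kb from its start to the start of the next Ugt gene. Its level was 23.9, 17.4 and 21.4 CPM in Kdm3 KO, against 37.2, 39.6 and 31.6 CPM in wBerlin. The log2 fold change of Ugt35C1 was −0.79, with an SE of 0.136 (adjusted p = 0.0139), without overlap between the groups, and the gene was called under all 15 alternatives. The ratio of Ugt35A1 to Ugt35C1 was 1.02, 1.06 and 1.01 in Kdm3 KO and 0.854, 1.02 and 1.58 in wBerlin, with overlap between the groups (exact permutation p = 0.8).

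Ugt302K1 (3R, 11151026 to 11153849, minus strand) was at 1.55, 2.29 and 1.42 CPM in Kdm3 KO, against 4.24, 3.61 and 4.39 CPM in wBerlin. These levels rest on 32 to 50 counts per knockout library and 96 to 118 counts per wBerlin library. Ugt302K1 had a log2 fold change of −1.22, with an SE of 0.246 (adjusted p = 0.0308), and was at 43.0% of the wBerlin level. The call held in 7 of 14 alternatives. It ended with upper quartile or total count scaling (adjusted p 0.0623 and 0.068) and without Kdm3 KO replicates 1 or 3 or wBerlin replicates 1, 2 or 3 (0.105, 0.107, 0.0842, 0.108 and 0.121).

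The other 6 genes of the stretch did not pass the test. Ugt302C1, an abundant member, overlapped between the genotypes, at 88.3, 67.2 and 86.4 CPM in Kdm3 KO and 72.7, 86.8 and 82.6 CPM in wBerlin. The log2 fold change of Ugt302C1 was −0.000436, with an SE of 0.123 (adjusted p = 0.999). Ugt35E2, next to Ugt35B1, was at 5.33, 5.82 and 5.68 CPM in Kdm3 KO and 3.16, 3.94 and 4.17 CPM in wBerlin, without overlap (log2 fold change 0.58, SE 0.166, adjusted p = 0.112). Ugt35E1, Ugt302E1, Ugt303A1 and Ugt304A1 had means under 2.5 CPM in both genotypes. Their log2 fold changes of 0.29, 0.21, 0.68 and 0.84 had SEs of 0.298, 0.383, 0.398 and 0.421.

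The subfamilies of the stretch therefore did not move as units. Of the 6 Ugt35 genes 1 was higher, 2 were lower and 3 did not pass, and of the 3 Ugt302 genes 1 was lower and 2 did not pass. The sixth Ugt35 gene, Ugt35D1, lies 21.9 Mb from Kdm3 on the same arm and had a log2 fold change of −0.51 (SE 0.528, adjusted p = 0.742).

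Between Ugt302C1 and Ugt35E1 lies a gene of another kind, CG4757 (3R, 11161207 to 11163498, plus strand). It is named here because of its position, after its values were seen. CG4757 was at 93.0, 61.7 and 131 CPM in Kdm3 KO, against 3.70, 3.07 and 4.39 CPM in wBerlin, 25.7-fold higher (adjusted p = 5.37e-05). The other 2 tested genes within the stretch, mAcon2 and CheA86a, had adjusted p-values of 0.835 and 0.661. In the 50 kb to either side of the stretch 1 of 17 tested genes was called.

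**Figure D3:**
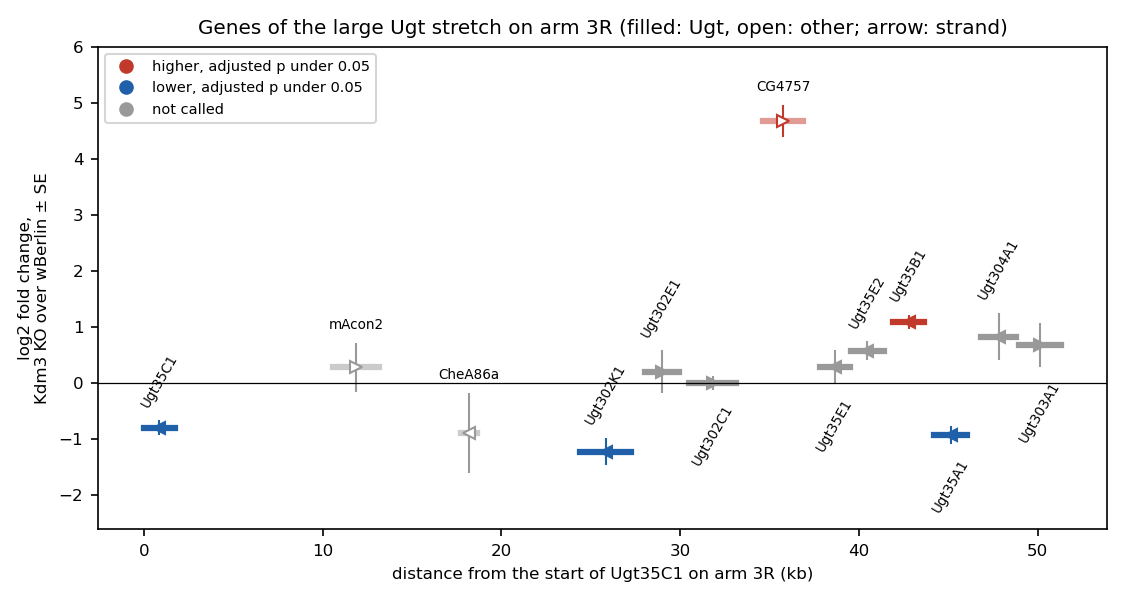
Genes of the stretch on arm 3R are placed by distance from the start of Ugt35C1 (horizontal axis, kb) and by log2 fold change, Kdm3 KO over wBerlin, ± SE (vertical axis); arrowheads give the strand, and filled and open symbols are Ugt and other genes. Ugt35B1 at 1.09 and its neighbour Ugt35A1 at −0.92 stand on opposite sides of 0, Ugt302C1 is at 0, and CG4757 at 4.69 is the highest gene in the stretch.

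Markers of tissues were read beside these genes, because an antennal source has been described for Ugt35B1. Of 16 antennal marker genes 7 were lower and 0 higher in Kdm3 KO (median log2 fold change −1.79), and 9 were lower by DESeq2 and 0 by limma voom. Without wBerlin replicate 1 the number was 11, and without Kdm3 KO replicates 2 or 3 or wBerlin replicates 2 or 3 it was 3 or 4. The odorant-binding protein gene Obp83a was at 0.914, 1.74 and 1.02 CPM in Kdm3 KO, against 7.76, 64.6 and 99.9 CPM in wBerlin replicates 1, 2 and 3. Its level in wBerlin replicate 1 lay between the knockout libraries and the other wBerlin libraries. The odorant co-receptor gene Orco was at 3.66, 5.73 and 5.19 CPM in Kdm3 KO and 6.36, 26.5 and 37.0 CPM in wBerlin (adjusted p = 0.0508). Without wBerlin replicate 1 the median of the antennal list was −2.29, and the log2 fold changes of Ugt35A1 and Ugt35B1 were −1.13 (adjusted p = 0.00477) and 1.00. Of the 16 antennal genes 2, Obp56d and Obp99a, had positive log2 fold changes, at 0.17 and 0.47.

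Of 10 tested fat body genes 4 were higher, 1 was lower and 5 did not pass the test (median log2 fold change 0.89), with 6 higher without wBerlin replicate 1 and 2 without wBerlin replicate 2. The higher genes were Yp3, Fbp2, Ilp6 and Gnmt, and the lower gene was to. The summed level of the list was 22918, 17795 and 21461 CPM in Kdm3 KO and 12744, 10962 and 7704 CPM in wBerlin. The yolk protein genes Yp1, Yp2 and Yp3 made up 96.8 to 98.0% of this sum in Kdm3 KO and 97.2 to 97.6% in wBerlin, and Yp1 and Yp2 did not pass (adjusted p 0.0705 and 0.0820). Without them the sum was 462, 375 and 678 CPM in Kdm3 KO, against 302, 308 and 184 CPM in wBerlin. Much of this difference came from Gnmt alone, at 139, 97.9 and 195 CPM in Kdm3 KO and 9.84, 11.0 and 5.13 CPM in wBerlin. The markers apolpp and Pepck1 are listed at 0 in every library, so neither sum includes them. Of 6 tested oenocyte markers 2 were higher, Desat1 and FASN2, and 0 lower. Fad2, Cyp4g1, Elo68alpha and spidey did not pass (adjusted p 0.954, 0.249, 0.918 and 0.618). The oenocyte list summed to 1543 to 2156 CPM in Kdm3 KO and 687 to 995 CPM in wBerlin. Most of this sum was Desat1, at 1885, 1320 and 1945 CPM in Kdm3 KO and 780, 840 and 548 CPM in wBerlin. Malpighian tubule markers summed to 99.2 to 116 CPM in Kdm3 KO and 103 to 107 CPM in wBerlin, and 0 of 5 were called by edgeR, DESeq2 or limma voom (1 at an unadjusted p under 0.05).

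Markers of sex, blood cells, muscle, eye and glia were read in the same way, since the sex of the flies is not stated. Of 6 genes that mark males or females 1 was higher by edgeR and limma voom and 4 by DESeq2. The higher gene was fit, a gene of the female fat body, at 51.6 to 89.9 CPM in Kdm3 KO, against 12.7 to 24.0 CPM in wBerlin, 3.62-fold higher (adjusted p = 0.00557). The male-specific RNA roX2 was at 180 to 232 CPM in Kdm3 KO and 117 to 153 CPM in wBerlin (adjusted p = 0.0538). Of 8 hemocyte markers 2 were higher, NimB4 at 1.55-fold (adjusted p = 0.0375) and PPO1 at 1.55-fold (adjusted p = 0.0311), and 0 were called without Kdm3 KO replicates 1 or 3 or wBerlin replicates 2 or 3. Of 11 muscle markers 1 was lower, Act87E (adjusted p = 0.0409), and the list summed to 11245 to 17588 CPM in Kdm3 KO and 14212 to 30891 CPM in wBerlin. The number of lower muscle markers was 4 without wBerlin replicate 1 and 0 with any other library left out. Of 10 photoreceptor markers 1 was lower, Rh5 (adjusted p = 0.0306), and 0 were called without Kdm3 KO replicates 2 or 3 or wBerlin replicate 2. None of 8 tested glial markers was called by edgeR or limma voom (1 by DESeq2, 1 at an unadjusted p under 0.05). The part of the marked tissues, and of sex, in the Ugt results was not tested.

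A second call on arm 3R lies in the Ugt37 subfamily, 3.22 Mb from Kdm3. Ugt37A3 (3R, 12741958 to 12743680, minus strand) was at 23.0, 7.52 and 9.36 CPM in Kdm3 KO, against 1.33, 1.39 and 0.870 CPM in wBerlin. Every knockout library was several times above every wBerlin library, and Kdm3 KO replicate 1 was well above the other 2. The means were 13.3 ± 8.44 and 1.20 ± 0.283 CPM (SD, n = 3), an 11.0-fold difference and the largest log2 fold change of the family (3.46, SE 0.431, adjusted p = 0.00377). It was called in 14 of 15 alternatives and missed by limma voom (log2 fold change 3.30, adjusted p = 0.0566). Without Kdm3 KO replicate 1 the fold was smaller, at 7.03.

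Ugt37A2 (3R, 12739642 to 12741417, plus strand) ends 540 bp from Ugt37A3, on the other strand. It was at 0.716, 1.88 and 0.888 CPM in Kdm3 KO and 0.611, 1.31 and 0.687 CPM in wBerlin, with overlap (log2 fold change 0.40, SE 0.483, adjusted p = 0.780). The ratio of Ugt37A3 to Ugt37A2 was 32.1, 4.00 and 10.6 in Kdm3 KO, against 2.18, 1.06 and 1.27 in wBerlin. These ratios did not overlap (exact permutation p = 0.1, the smallest possible). Of the 13 other genes tested within 50 kb of either gene, none was called by edgeR, DESeq2 or limma voom (3 had an unadjusted p under 0.05). Glycine N-methyltransferase, Gnmt, lies 63.6 kb from Ugt37A2 and was 16.5-fold higher (adjusted p = 0.000448).

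The other 6 Ugt37 genes did not pass the test by edgeR, and DESeq2 called 1 of them, Ugt37B1. Ugt37D1, on arm 2L (16799025 to 16801584), was by far the most abundant of them, at 96.8, 74.8 and 93.5 CPM in Kdm3 KO and 79.0, 99.0 and 104 CPM in wBerlin (log2 fold change −0.0893, SE 0.134, adjusted p = 0.827). The groups overlapped. Ugt37B1 (2L, 6225048 to 6226842) was at 2.86, 4.72 and 1.91 CPM in Kdm3 KO and 1.33, 1.57 and 0.915 CPM in wBerlin. Its values did not overlap, and its log2 fold change of 1.30 (SE 0.369) had an adjusted p of 0.107 by edgeR's quasi-likelihood test, 0.0220 by DESeq2 and 0.194 by limma voom. Ugt37A1 was at 2.25 to 2.54 CPM in Kdm3 KO and 1.33 to 1.65 CPM in wBerlin (adjusted p = 0.212). Ugt37C2 and Ugt37E1, which stand in 1 row with Ugt37D1, and Ugt37C1 had log2 fold changes of 0.43, 0.30 and −0.24 with SEs of 0.462, 0.520 and 0.412.

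The third higher gene, Ugt49B1, is on arm 2R (21212880 to 21214972, minus strand), away from Kdm3. It was at 118, 77.1 and 111 CPM in Kdm3 KO, against 47.7, 54.2 and 51.3 CPM in wBerlin. All knockout libraries were above all wBerlin libraries, with replicate 2 the lowest knockout. The means were 102 ± 21.9 and 51.1 ± 3.26 CPM (SD, n = 3), a 2.00-fold difference (SE of the log2 value 0.151, adjusted p = 0.00769), and the gene was called under all 15 alternatives. The exons of Ugt49B1 overlap those of CG44245 on the opposite strand by 90 bp. CG44245 was at 52.7 ± 14.5 CPM in Kdm3 KO and 79.9 ± 2.16 CPM in wBerlin (SD, n = 3), the opposite direction, at an adjusted p of 0.113.

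Ugt49C1 (2R, 21215435 to 21217779) follows after 462 bp on the same strand. It was at 80.7, 50.4 and 67.6 CPM in Kdm3 KO and 43.0, 47.8 and 48.2 CPM in wBerlin, without overlap. Its difference missed the threshold, at a log2 fold change of 0.52 with an SE of 0.154 (adjusted p = 0.125). It passed by DESeq2, with Kdm3 KO replicate 2 left out, and with both that library and wBerlin replicate 1 left out (adjusted p 0.0185, 0.0117 and 0.0195). The ratio of Ugt49B1 to Ugt49C1 was 1.46, 1.53 and 1.64 in Kdm3 KO, against 1.11, 1.13 and 1.06 in wBerlin, with no overlap (exact permutation p = 0.1, the smallest possible). The remaining Ugt49 gene, Ugt49B2 on arm 3R, had means of 0.981 ± 0.543 CPM in Kdm3 KO and 0.933 ± 0.117 CPM in wBerlin (SD, n = 3).

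**Figure D4:**
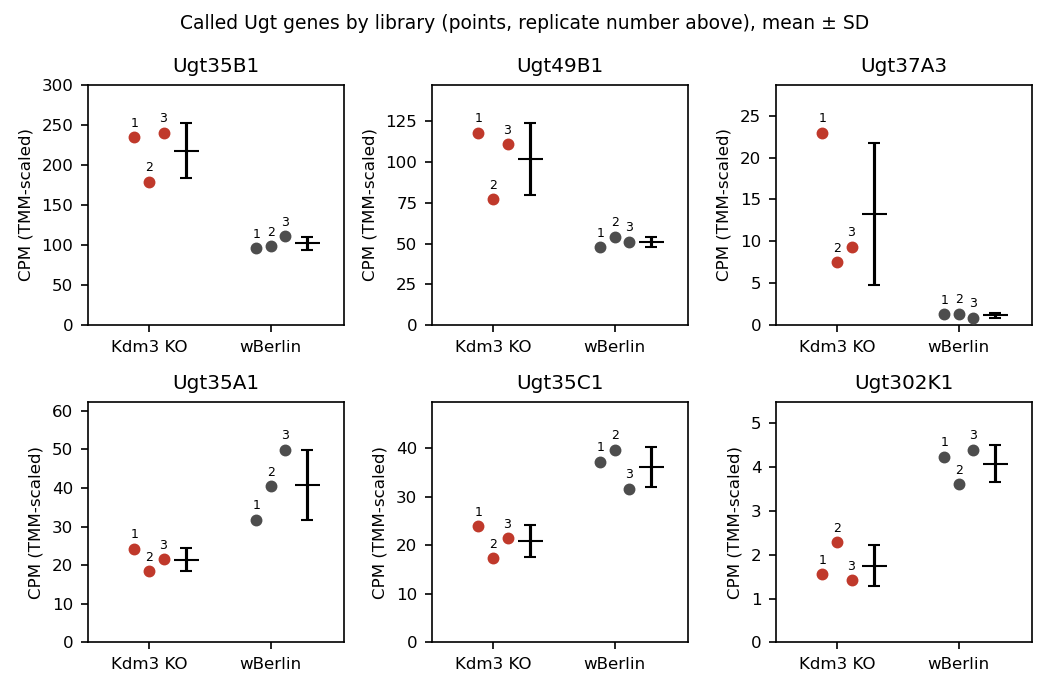
Each panel shows the CPM of 1 called Ugt gene in the 3 Kdm3 KO libraries (red) and the 3 wBerlin libraries (dark grey), with the replicate number above each point and the mean ± SD at the right of each group. The groups do not overlap in any panel, and Kdm3 KO replicate 1 of Ugt37A3, at 23.0 CPM, stands above the other knockout libraries at 7.52 and 9.36 CPM.

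None of the 4 Ugt36 genes passed the test by edgeR or limma voom (2 at an unadjusted p under 0.05, 1 by DESeq2). Over all tested genes 14.6% had an unadjusted p under 0.05. Ugt36A1 (2L, 3619097 to 3621573), also named Dorothy and known from pericardial cells and blood-forming tissue, was at 25.4, 20.3 and 22.9 CPM in Kdm3 KO. In wBerlin it was at 14.3, 18.4 and 12.6 CPM, without overlap. The log2 fold change was 0.60 (SE 0.151, adjusted p = 0.0735), and the test was passed by DESeq2 and without wBerlin replicate 2 (adjusted p 0.0104 and 0.0423). Exons of Ugt36A1 overlap CG15418 on the opposite strand by 400 bp. CG15418 averaged 0.418 ± 0.301 CPM in Kdm3 KO and 0.451 ± 0.176 CPM in wBerlin (SD, n = 3). The strand setting is not stated, and the part of this overlap in the counts of Ugt36A1 was not tested.

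Ugt36F1, Ugt36D1 and Ugt36E1 stand in 1 row on arm 2L. Ugt36D1 was among the steadiest of the abundant members, at 37.5, 38.9 and 37.4 CPM in Kdm3 KO and 40.0, 38.0 and 40.7 CPM in wBerlin (log2 fold change −0.0607, SE 0.0837, adjusted p = 0.808). Ugt36E1, at 22.7 to 31.6 CPM in Kdm3 KO and 22.4 to 26.4 CPM in wBerlin, also overlapped (adjusted p = 0.503). Ugt36F1 was at 9.98 to 11.3 CPM in Kdm3 KO and 7.37 to 9.67 CPM in wBerlin, without overlap but not past the threshold (adjusted p = 0.283).

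Of the 12 members other than Ugt35C1 that have no Ugt neighbour within 20 kb, none passed the test in edgeR or limma voom (4 at an unadjusted p under 0.05, 2 by DESeq2). Ugt316A1 (3L, 19059400 to 19062816) was at 52.9, 49.9 and 53.6 CPM in Kdm3 KO and 49.3, 47.3 and 52.8 CPM in wBerlin (log2 fold change 0.0661, SE 0.0872, adjusted p = 0.800). Ugt301D1 was at 77.9, 74.2 and 95.9 CPM in Kdm3 KO and 66.4, 65.9 and 77.3 CPM in wBerlin, with overlap (adjusted p = 0.399). Ugt50B3 (2R, 5496674 to 5549543) was at 24.5, 22.6 and 25.3 CPM in Kdm3 KO and 25.9, 28.9 and 30.4 CPM in wBerlin, without overlap (log2 fold change −0.24, SE 0.101, adjusted p = 0.318). The flight muscle gene TpnC4, which reached 87.8 CPM in Kdm3 KO replicate 2 and at most 2.26 CPM elsewhere, lies within an intron of Ugt50B3 without exon overlap. The level of Ugt50B3 in that library was the lowest of the 6.

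The members at low levels differed mainly in 1 library. Of 19 Ugt genes with a mean under 5 CPM, 16 had their highest value in Kdm3 KO replicate 2, compared with 0 of 16 members at higher levels. Among all 5476 tested genes with a mean under 5 CPM the share highest in that library was 69.8%, so the members' 84.2% lies near what low genes show in general. Their summed level was 31.0, 57.1 and 25.5 CPM in Kdm3 KO replicates 1, 2 and 3, against 28.8, 31.0 and 29.1 CPM in wBerlin. Ugt303B3, for example, was at 7.98 CPM in Kdm3 KO replicate 2 but 2.35 and 2.00 CPM in the other knockout libraries and 2.12 to 2.48 CPM in wBerlin. For the sum and for Ugt303B3 the knockout libraries other than replicate 2 thus lay within or close to the range of wBerlin. Of the 19, 5 had no overlap between the genotypes, 4 with all knockout libraries higher and 1 with all lower. Among these, Ugt37B1, Ugt35E2 and Ugt304A1 were themselves highest in Kdm3 KO replicate 2. Over all tested genes 18.7% had no overlap, so the count of 5 is not read as a trait of the low members.

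Of these 19 members 16 had a positive log2 fold change with all libraries and 8 without Kdm3 KO replicate 2, and their median was 0.43 and −0.13. All 4 Ugt303 genes belong to the first count, at 0.43 to 0.83. The 15 gut marker genes, with deltaTry at 0 throughout, summed to 79.9 CPM in Kdm3 KO replicate 2, 20.9 and 23.9 CPM in the other knockout libraries and 10.1 to 12.7 CPM in wBerlin. Of 11 tested gut genes 2 were higher by edgeR, DESeq2 and limma voom. They were the amylase genes Amy-p, at 4.69, 11.3 and 7.59 CPM in Kdm3 KO and 0.718 to 0.949 CPM in wBerlin, and Amy-d, at 8.95, 14.7 and 11.1 CPM in Kdm3 KO and 1.79 to 2.88 CPM in wBerlin, so that every knockout library was above every wBerlin library. The amylase genes made up most of the gut sum in Kdm3 KO replicates 1 and 3. The gut genes alphaTry and betaTry did not pass the filter on low counts. They were at 18.85 and 11.05 CPM in Kdm3 KO replicate 2 and at most 0.4015 CPM elsewhere. Some markers of other lists were also highest there. Uro, Cyp4g1 and fln were at 7.48, 42.2 and 14.45 CPM, against 0.398, 5.65 and 0.914 CPM in Kdm3 KO replicate 1. Irk3, spidey and Act79B of the same lists were not. The part of RNA from gut or other tissues was not tested. Ugt302K1, the only low member called by edgeR, was 1 of the 3 low members not highest in Kdm3 KO replicate 2.

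**Figure D5:**
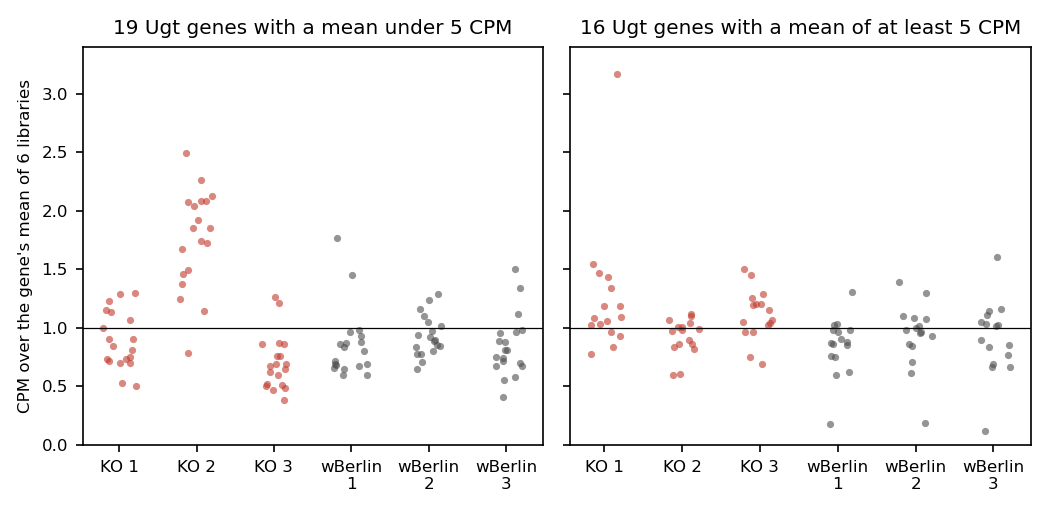
Each point is the CPM of 1 Ugt gene in 1 library, divided by the mean of that gene over the 6 libraries, for 19 genes with a mean under 5 CPM (left) and 16 genes above it (right); points are spread sideways at random. In the left panel Kdm3 KO replicate 2 (KO 2) is raised for 16 of 19 genes, and in the right panel it is the highest library for 0 of 16.

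Genes that act beside the Ugt enzymes were read from the same fit. UDP-glucose is made from glucose and galactose, and of 15 tested genes of UDP-sugar supply 2 were higher and 0 lower (7 and 1 at an unadjusted p under 0.05, median log2 fold change 0.23). At that unadjusted p, 7.14% of all tested genes were higher and 7.51% lower. DESeq2 called 6 higher, as did edgeR without Kdm3 KO replicate 2, and 0 were called without Kdm3 KO replicate 3 or wBerlin replicate 3. Galactokinase, Galk, was at 268 ± 69.5 CPM in Kdm3 KO and 125 ± 21.0 CPM in wBerlin (SD, n = 3), 2.14-fold higher (adjusted p = 0.0171). The hexokinase gene Hex-C was at 167 ± 33.6 CPM in Kdm3 KO and 89.3 ± 17.6 CPM in wBerlin (SD, n = 3), 1.87-fold higher (adjusted p = 0.0276). UGP, which makes UDP-glucose itself, had 614 ± 128 CPM in Kdm3 KO and 373 ± 66.0 CPM in wBerlin (SD, n = 3) and missed the threshold (adjusted p = 0.0698).

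Of 13 tested ABC transporters that can carry conjugates out of cells, 2 were higher and 0 lower (median log2 fold change 0.36). Without Kdm3 KO replicate 2 this median was 0.00491, so the upward shift of the list rested on that library. With any other single library left out the median was 0.184 to 0.411. The P-glycoprotein gene Mdr50 was at 24.7 ± 6.11 CPM in Kdm3 KO and 4.97 ± 1.37 CPM in wBerlin (SD, n = 3), 4.95-fold higher (adjusted p = 0.0013). CG31793 was 1.43-fold higher (adjusted p = 0.0409). The number called was 1 without Kdm3 KO replicates 1 or 3 or wBerlin replicates 2 or 3. Of 5 enzymes that split sugar conjugates, the glucocerebrosidase gene Gba1b alone passed by edgeR (adjusted p = 0.00488). Gba1b was at 31.8 ± 4.03 CPM in Kdm3 KO and 17.1 ± 1.08 CPM in wBerlin (SD, n = 3). In this list 2 were higher by DESeq2 and 1 by limma voom. At an unadjusted p under 0.05 by edgeR 2 were higher and 1 lower.

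None of the 10 regulators of the xenobiotic response or the 4 sulfotransferases passed the test in edgeR or limma voom. Nor did any of the 7 genes listed under juvenile hormone and ecdysteroid breakdown or the 5 other users of UDP-glucose. At an unadjusted p under 0.05 these lists had 1 higher and 2 lower, 1 and 0, 2 and 1, and 1 and 1, and DESeq2 gave 1 and 1, 0 and 0, 1 and 1, and 1 and 0. The lowest adjusted p among them were 0.0538 for Jhedup, a duplicate of the juvenile hormone esterase gene, and 0.0540 for maf-S, the partner of the xenobiotic regulator cnc. Jhedup was at 5.49, 8.90 and 13.6 CPM in Kdm3 KO and 11.6, 91.5 and 107 CPM in wBerlin replicates 1, 2 and 3. The groups overlapped at wBerlin replicate 1. The means of Jhedup were 9.34 ± 4.09 and 70.2 ± 51.4 CPM (SD, n = 3), and maf-S was 1.36-fold higher. The antennal marker Obp83a was likewise lower in wBerlin replicate 1 than in replicates 2 and 3 (7.76, 64.6 and 99.9 CPM). Whether Jhedup acts in hormone breakdown was not tested. In the lists of all these partner genes 5 of 59 tested genes were called, where 3.07% of all genes were.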

How the data were processed

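Raw read counts per gene of 6 libraries were deposited by the authors, after ribosomal RNA removal with a Ribo-Zero kit and library preparation with a NEBNext Ultra II kit per the labels' protocols. Per the submitters' processing notes, STAR, SAMtools, HTSeq and DESeq2 were used with BDGP6. Strand setting, versions and roles are not stated there, so genes overlapping on opposite strands, and reads shared by similar tandem copies, are uncertain. Symbols, positions and exon lengths came from Ensembl release 115 gene models, on BDGP6.54, and these matched 17626 of 17753 genes. Genomic and protein sequences were not used here.

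Counts were fitted with edgeR 4.0.16 in R 4.3.3 (TMM scaling, filterByExpr, glmQLFit, then a two-sided glmQLFTest of genotype without covariates). Adjusted p-values are Benjamini-Hochberg values over the 14069 genes tested, and are from this fit unless another tool is named. SEs were derived from the F statistic. The biological coefficient of variation was 18.2%. DESeq2 1.42.0 and limma 3.58.1 (voom) were alternatives, as were other scalings, filters, left-out libraries and the replicate number as a block. Between libraries of 1 genotype the chi-square of the counts, divided by its degrees of freedom, was 15.4 to 60.2, so none was a copy. Same-numbered libraries did not deviate together in all 3 pairs, so numbers were not used to pair them.

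Members, gene lists and tests were chosen with earlier results of these data known. Named with values were called members, members within 2 Mb of Kdm3, the 8 most abundant, the 4 with the largest absolute log2 fold change, those with an unadjusted p under 0.05, and up to 4 called genes of each partner list (2 by p where none was called). Other genes were chosen after their values were seen. Runs are members with starts at most 20 kb apart. Older symbols in the lists were matched through RefSeq synonyms, and Gfat1 and beta-Glu found no match.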

Additional observations from a re-analysis of the deposited data

How the results depend on the processing

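Counts of called Ugt genes were 3 higher and 3 lower. They were 6 and 3 by DESeq2 and 5 and 3 with the replicate block, and with 1 library left out they ranged from 3 to 4 higher and from 1 to 2 lower. Over all genes 303 were higher and 129 lower. The numbers higher were 473 with a mean of at least 5 CPM, 515 by DESeq2 and 606 when Kdm3 KO replicate 2 and wBerlin replicate 1 were both dropped (4 libraries). The numbers lower were 212 with upper quartile scaling, 266 without the filter, 274 with a mean of at least 5 CPM, 409 by DESeq2, 476 in the 4 libraries and 362 with the replicate block. With 1 library left out they ranged from 181 to 574 higher and from 62 to 467 lower. The cause was not tested. Calls of Kdm3 and w did not change under the 15 alternatives, at log2 fold changes of −5.47 to −3.70 and 3.81 to 4.01 with 1 library left out.

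Ugt35B1, Ugt35C1 and Ugt49B1 were called in all 15 alternatives. The replicate block added calls of Ugt36A1 and Ugt37B1 (adjusted p 0.0435 and 0.0303). Correlations of same-numbered libraries' deviations were 0.342, 0.248 and −0.0495 for replicates 1, 2 and 3. Those of replicates 1 and 2 were the highest of all pairs across the genotypes. Kdm3 KO replicate 3 correlated best with wBerlin replicate 1 (0.18), so whether the numbers mark pairs is not settled. In at least 1 alternative 11 of the 35 members, none of them called by edgeR with all libraries, changed direction, 10 of them without Kdm3 KO replicate 2. Of these, 4 are among the members named by rule. With 1 library left out, log2 fold changes ran from −0.256 to 0.0225 for Ugt37D1, −0.0131 to 0.101 for Ugt316A1, −0.302 to 0.430 for Ugt302E1 and −0.126 to 0.120 for Ugt302C1. Without Kdm3 KO replicate 2 the log2 fold change was 0.0225 for Ugt37D1, −0.302 for Ugt302E1 and 0.120 for Ugt302C1. In the 4 libraries it was −0.348 for Ugt302E1 and 0.0446 for Ugt302C1. Without wBerlin replicate 2 it was −0.0131 for Ugt316A1 and 0.00971 for Ugt302C1, and with total count scaling it was 0.0102 for Ugt302C1. Summing near-identical neighbours was not run, since no protein sequences were used here. Low members rest on few counts, with SEs of 0.166 to 0.568, against 0.0837 to 0.431 for members at 5 CPM or more.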
